A study of Mus musculus with 30 samples.

Results

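The replication-dependent histone genes of the mouse were read in bulk RNA libraries of blood-forming cells. They were chosen by symbol, as every row of the deposited gene table that begins with Hist1h, Hist2h, Hist3h or Hist4h. This gave 68 of the 23060 genes in the table, of which 6 encode linker histone H1, 18 encode H2A, 19 encode H2B, 12 encode H3 and 13 encode H4. The Hist1 cluster supplied 54 members, Hist2 supplied 10, Hist3 supplied 3 and Hist4 supplied 1.

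The study asked whether adult endothelial cells can be converted to blood stem cells, and profiled sorted cells from wild-type mice beside cells annotated as derived. Wild-type controls were LKS-SLAM cells of the bone marrow, the fraction enriched for stem cells (3 libraries), and from blood Gr1+Cd11b+ myeloid cells (2), B220+ B cells (3), Cd3+Cd4+ T cells (2) and Cd3+Cd8+ T cells (3). The same 5 populations annotated as derived and titled rEC, read here as descendants of converted endothelium in recipient mice, gave 3, 2, 3, 2 and 3 libraries. A culture titled FGRS KLS, adherent cells at day 28 kept with HUVEC (human umbilical vein endothelial cells) and annotated as derived, gave 3 libraries. The letters FGRS name its 4 transcription factors, Fosb with Gfi1, then Runx1 with Spi1. In the rEC groups replicate 2 of LKS-SLAM and of B cells carries the name of a clone, 47G1. The word secondary stands in the titles of replicate 3 of LKS-SLAM and B cells, replicate 2 of CD4 cells and both later CD8 libraries. Control replicate 3 and rEC replicate 1 of LKS-SLAM are annotated as long-term stem cells and the other 4 only as stem cells. All sorted cells were labelled as freshly isolated, and the labels give no age or sex and do not say that replicates came from separate animals, so p-values measure the spread between these libraries.

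Core histones form the protein spool around which DNA is wound, and linker histone H1 binds where the DNA enters and leaves it. Most of their mRNA is made in S phase, and it normally ends just behind a short stem-loop and carries no poly-A tail. Some of the same genes also make longer, polyadenylated transcripts, which are known above all from resting and differentiating cells. All libraries here were poly-A selected, so they retain the tailed forms and whatever untailed histone mRNA escaped selection, and the levels below are not total histone mRNA. Bulk RNA cannot tell fewer cells of a type from less RNA per cell.

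The ends of the 7 members with the highest mean level, and of 2 members whose annotated mRNA stops just behind the loop, are shown because the end decides what poly-A selection can capture. Positions and sequence are those of GENCODE on GRCm38, the assembly also called mm10, and capitals mark the paired stem or the poly-A signal.
Hist1h1c stem-loop, chr13:23739505-23739534, plus strand: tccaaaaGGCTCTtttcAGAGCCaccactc
Hist1h1c poly-A signal, chr13:23740334-23740363, plus strand: atgcttctAATAAAaagcgtttagttttca
Hist3h2a stem-loop, chr11:58955165-58955194, plus strand: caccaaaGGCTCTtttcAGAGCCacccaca
Hist3h2a poly-A signal, chr11:58956789-58956818, plus strand: atatgcccAATAAAataagagtacgtgtat
Hist1h4i stem-loop, chr13:22040959-22040988, minus strand: acttaaaGGCCCTttttAGGGCCaccacaa
Hist3h2ba stem-loop, chr11:58949342-58949371, plus strand: acccaaaGGCTCTtttcAGAGCCaccttcc
Hist1h2bg stem-loop, chr13:23571836-23571865, plus strand: acccaaaGGCTCTtttcAGAGCCacccata
Hist2h2be poly-A signal, chr3:96223709-96223738, plus strand: ttattattAATAAAgttaccgattagtttc
Hist1h2bj stem-loop, chr13:22043631-22043660, plus strand: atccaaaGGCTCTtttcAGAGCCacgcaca
Hist1h4m stem-loop, chr13:21812122-21812147, plus strand: aactaaaGGCCCTtttcAGGGCCatc
In the annotation Hist1h1c runs on for 840 bases behind its loop, Hist3h2a for 1643, Hist1h4i for 330, Hist3h2ba for 169 and Hist1h2bg for 155, whereas Hist1h2bj stops after 23 bases and Hist1h4m after 3. Hist2h2be has no perfectly paired loop of this form in its mRNA of 2620 bases. The annotated mRNA of Hist1h4i and Hist3h2ba also has a poly-A signal near its end, which is not printed here. None was found in the last 50 bases of Hist1h2bg or Hist1h2bc. Hist1h2bc is the spliced case: its 2 exons (gene chr13:23684199-23692908, plus strand) join shortly behind the stop codon (capitals), across chr13:23684607-23692190, as aagTGAtcctgccaagaggagcagacctga, and the joined mRNA holds no perfect loop.

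A perfectly paired loop, searched as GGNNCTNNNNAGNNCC with both sides of the 6-base stem paired around a loop of 4, was found in the annotated mRNA of 45 of the 68 members and in 0.376% of 58725 other protein-coding transcripts. The form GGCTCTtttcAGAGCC was shared by 25 members of the H1, H2A, H2B and H3 types, and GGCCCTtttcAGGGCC by 7 H4 members. A poly-A signal (AATAAA or ATTAAA) lay in the last 50 bases of 17 members, against 50.2% of the other transcripts. A missing loop or signal says only that these letters are not in the annotated model.

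Levels were concentrated in few members. FPKM, the deposited unit, counts sequenced fragments per kilobase of transcript, scaled to the mapped fragments of the library, so levels may be compared between genes, and 7 members had a mean of at least 5 FPKM over the 29 grouped libraries while 9 lay between 1 and 5. Mean levels were 61.9 FPKM for Hist1h1c, 38.8 for Hist3h2a, 19.2 for Hist1h2bc, 16.97 for Hist1h4i, 10.3 for Hist3h2ba, 6.68 for Hist1h2bg and 5.83 for Hist2h2be. These 7 made up between 66.5% and 95.7% of the summed histone FPKM of each library. The highest H3 member, Hist1h3a, averaged 0.839 FPKM, 14 members stayed below 1 FPKM in every library and 7 were listed at 0 throughout.

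**Figure D1:**
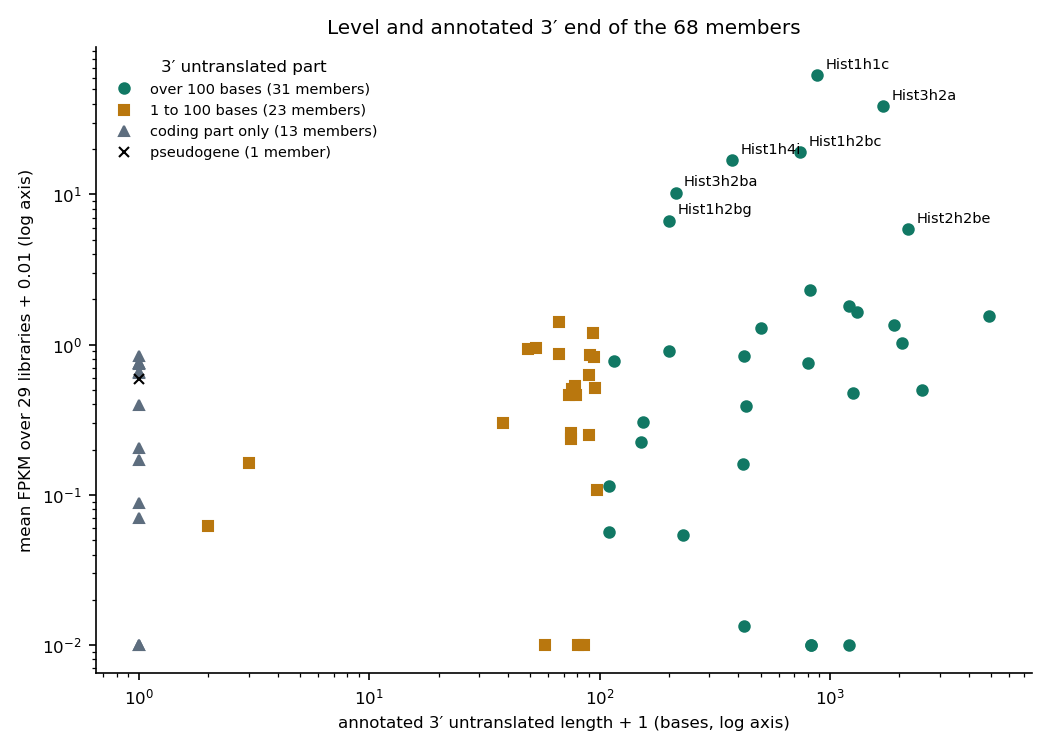
Mean FPKM over 29 libraries (log axis, 0.01 added) against the annotated 3′ untranslated length (log axis, 1 base added) for the 68 members, with marker shape by model class. All 7 members at 5 FPKM or more have an annotated 3′ untranslated part of over 100 bases.

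The annotated 3′ untranslated part exceeded 100 bases in 31 members, and these included all 7 members with a mean of at least 5 FPKM and had a median of 0.831 FPKM. It was 100 bases or shorter in 23 members, whose highest mean was 1.40 FPKM in Hist1h2bj, and 13 members were annotated by their coding part only, with 0.830 FPKM in Hist1h4k as the highest. Hist3h2bb-ps, annotated as a pseudogene, averaged 0.582 FPKM. FPKM divide by the length of the authors' transcript model, which is not given in the sources used here, so the level of a member with a short or partial model depends on that length.

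Near-identical copies limit the low members. In 34 of the 68, more than 50% of all 51-base windows of the annotated mRNA, the length of a read, also occur in another gene, and 4 members share none. Hist1h4m shared 89.8% of its windows and Hist1h2bj 59.1%, against 8.41% in Hist1h1c and 0% in Hist2h2be. Hist3h2a shared 31.4%, with Trim17 as its main partner, which overlaps it on the same strand, and the annotated span of Hist1h2be overlaps Hist1h1e, so reads of these pairs cannot be told apart in part. The library kit did not keep strand.

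Some promoter letters followed the histone type. Among the 61 members with a RefSeq promoter (GRCm38.p6, 250 bases before and 50 after the start, both strands searched), CCAAT occurred in all 6 H1, 17 H2A, 16 H2B and 10 H3 promoters, in 3 of 12 H4 promoters and in 37.8% of 26964 other promoters. The H1 box AAACACA occurred in 5 of 6 H1 promoters and in 7.12% of other promoters, and the octamer ATTTGCAT in 7 of 17 H2A and 6 of 16 H2B promoters and in 1.71% of others. The TATA box TATAAA occurred in every type: 4 of 6 H1, 11 of 17 H2A, 8 of 16 H2B, 4 of 10 H3 and 8 of 12 H4 promoters, against 14.1% of others. The promoter of Hist1h1c is printed because this gene carried the difference by origin in CD8 cells below, with the H1 box and CCAAT in capitals (chr13:23738557-23738806, plus strand):
Hist1h1c: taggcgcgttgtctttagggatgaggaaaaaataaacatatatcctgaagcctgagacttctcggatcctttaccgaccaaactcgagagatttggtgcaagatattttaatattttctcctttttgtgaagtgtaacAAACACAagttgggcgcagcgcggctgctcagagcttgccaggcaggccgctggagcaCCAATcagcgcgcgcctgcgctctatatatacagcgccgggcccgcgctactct
A match is a description of the letters and not a bound site.

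Between 10165 and 12550 genes reached 1 FPKM in each library, and relative depth, read from the smallest values, lay between 0.582 and 1.13 of B cell control replicate 2. Several sorted libraries stood apart from their groups. B cell rEC replicate 1 carried a summed level of 1345 FPKM over 6 T cell markers, against 2.69 to 4.26 in the other B cell libraries. LKS-SLAM rEC replicate 2 held 109 FPKM over 6 stem cell markers, against 400.5 to 619 in the other LKS-SLAM libraries, and had the highest erythroid sum, 2298 FPKM. In CD4 control replicate 1 the RNA Gm25500 took 24.0% of all FPKM, and 11 members were above 0 against 23 in replicate 2. LKS-SLAM control replicate 3 had the lowest relative depth. The FGRS culture held 31.2 to 55.6 FPKM of the stem cell markers and 235 to 1340 FPKM over 6 macrophage markers.

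Control cell types were compared first. LKS-SLAM cells carried the highest histone sum: the summed level of all members was 482, 658 and 448 FPKM, against 398 and 322 in myeloid cells, 133, 148 and 131 in B cells, 83.6 and 115 in CD4 T cells and 107, 112 and 84.2 in CD8 T cells. The number of members at 1 FPKM or more was 35 to 48 in LKS-SLAM cells and 7 to 17 in the 4 blood populations. Myeloid cells were the blood population closest to LKS-SLAM cells in the sum, but through few genes.

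H3 was read almost only in LKS-SLAM cells among the controls. The summed H3 level was 22.2, 28.3 and 17.5 FPKM there and at most 3.23 FPKM in any blood control library. For H4 the sums were 51.2, 88.5 and 53.2 FPKM in LKS-SLAM, 48.5 and 39.8 in myeloid, 18.04, 11.96 and 13.8 in B, 5.83 and 6.07 in CD4 and 6.63, 8.58 and 6.47 in CD8 cells. The myeloid H4 libraries thus lay below all 3 LKS-SLAM libraries but far above every lymphocyte library.

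**Figure D2:**
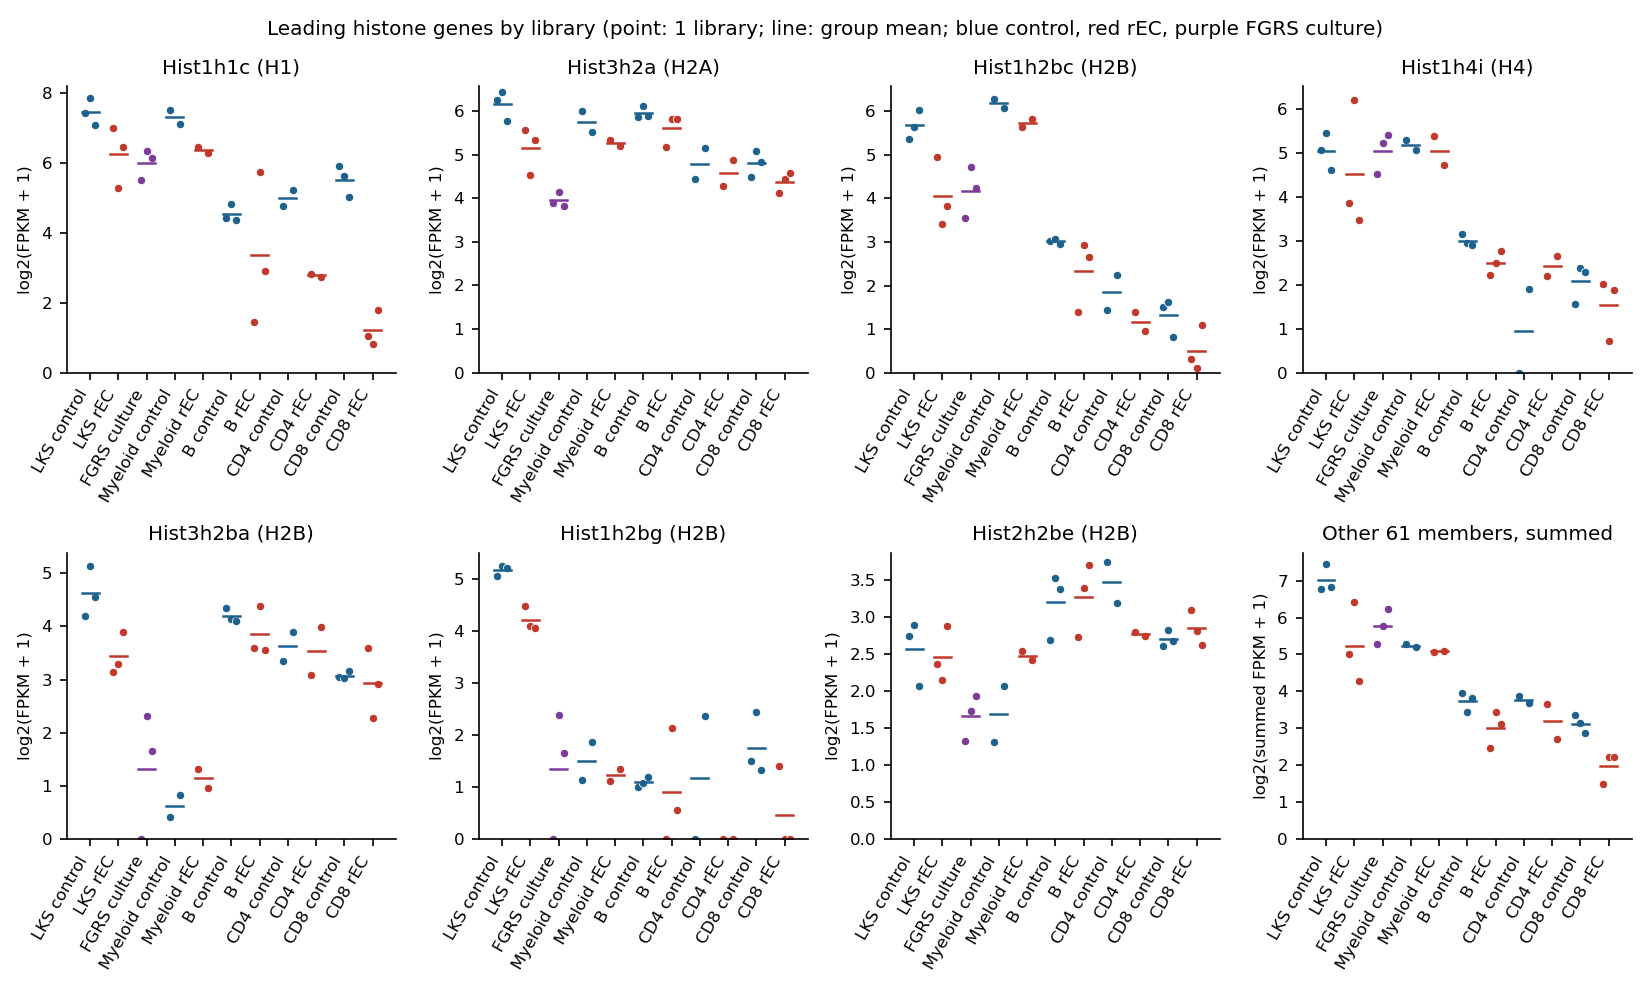
Level of the 7 leading members, as log2(FPKM + 1), and of the other 61 members summed, in each library of 11 groups (points, 1 library each; lines, group means; blue control, red rEC, purple FGRS culture). Hist1h2bg is high only in the LKS-SLAM groups, and Hist3h2ba is low in the myeloid groups and in the FGRS culture.

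Among the H1 genes Hist1h1c, which encodes the linker histone H1.2, was abundant in LKS-SLAM and myeloid cells alike. Its level was 171, 227 and 132 FPKM in LKS-SLAM, 180.3 and 136 in myeloid, 20.3, 27.3 and 19.5 in B, 25.9 and 36.5 in CD4 and 58.5, 47.6 and 31.1 in CD8 cells. LKS-SLAM and myeloid libraries overlapped, and both lay above every lymphocyte library. Hist1h1e (H1.4) was likewise higher in LKS-SLAM and myeloid cells than in lymphocytes, with 5.46 ± 1.04 FPKM in LKS-SLAM (SD, n = 3), 5.24 ± 2.02 in myeloid (SD, n = 2) and 0.541 to 0.904 FPKM as means in lymphocytes. Hist1h1d (H1.3) did not: it was 6.30, 12.3 and 3.72 FPKM in LKS-SLAM and at most 0.843 FPKM in the blood controls, myeloid cells included.

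For H2A the level rested on Hist3h2a, which lies in the small Hist3 cluster (chr11:58954685-58956830, plus strand, 1 exon). It was 75.4, 86.0 and 53.8 FPKM in LKS-SLAM, 57.4, 68.8 and 58.0 in B, 62.6 and 44.9 in myeloid, 20.7 and 34.4 in CD4 and 21.6, 33.0 and 27.2 in CD8 cells. The first 3 populations overlapped and all lay above the T cells. The H2B gene Hist3h2ba lies upstream on the same strand (chr11:58948920-58949533, plus strand), with Hist3h2bb-ps between it and Hist3h2a. Hist3h2ba was 17.2, 34.1 and 22.4 FPKM in LKS-SLAM and 19.3, 16.7 and 16.2 in B cells, but 0.343 and 0.786 FPKM in myeloid cells. In myeloid cells Hist3h2a was thus near the B cell level and Hist3h2ba nearly absent.

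The H2B genes each had a pattern of their own. Hist1h2bc, the spliced gene, was highest in myeloid cells with 76.1 and 66.8 FPKM, followed by LKS-SLAM cells with 40.2, 48.4 and 64.1, B cells with 7.12, 7.38 and 6.78 and T cells with at most 3.73 FPKM. No myeloid library overlapped LKS-SLAM, but the difference of 0.50 ± 0.45 (log2, SE) did not pass limma's test (adjusted p = 0.33). Hist1h2bg was 32.7, 37.2 and 36.4 FPKM in LKS-SLAM cells and at most 4.47 FPKM in any blood control library. Hist2h2be ran the other way, with means of 10.2 ± 3.06 FPKM in CD4 (SD, n = 2), 8.46 ± 2.66 in B, 5.52 ± 0.498 in CD8 and 5.09 ± 1.70 in LKS-SLAM cells (SD, n = 3 each) and 2.33 ± 1.22 in myeloid cells (SD, n = 2), where each neighbour in this order overlapped the next.

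Tests used limma on log2(FPKM + 1) with 1 mean for each of the 11 groups, over the 14083 genes that reached 1 FPKM in 2 or more libraries, with Benjamini-Hochberg adjustment at 0.05. Of the 68 members, 47 passed this filter and were tested, and 21 were too low. Over the 5 control populations 35 of the 47 differed by the F test, where 84.6% of all genes did. Against LKS-SLAM cells, 30 members were lower and 1 higher in myeloid cells (66.5% of all genes called, 49.1% lower), 33 lower in B cells (55.6% called, 36.7% lower), 32 lower and 1 higher in CD4 cells (50.5% called, 32% lower) and 37 lower in CD8 cells (50.2% called, 33.2% lower). The 4 comparisons share the LKS-SLAM controls. Some members passed the filter only through LKS-SLAM cells and had to be lower elsewhere. With the filter applied outside the groups compared, 27 of 42 were lower in myeloid, 30 of 42 in B, 29 of 41 in CD4 and 33 of 42 in CD8 cells. Of all genes 66.3%, 55%, 50% and 49.6% were then called, and the 28 of 42 members called in myeloid cells were near that share. The libraries outside still held LKS-SLAM rEC and FGRS libraries. Members such as Hist1h1a that passed through those alone still had to be lower in blood.

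The differences of the leading members from LKS-SLAM cells were large. Hist1h2bg was lower in each blood population, by 3.68 ± 0.66 (log2, SE) in myeloid, 4.09 ± 0.59 in B and 3.42 ± 0.59 in CD8 cells, with CD4 cells in between (limma adjusted p between 4.78e-06 and 5.08e-05). Hist1h2bc was lower by 2.66 ± 0.40 in B, 3.83 ± 0.45 in CD4 and 4.36 ± 0.40 in CD8 cells (limma adjusted p 9.15e-06, 5.11e-07 and 1.33e-08). Hist1h4i, an H4 gene, was lower by 2.04 ± 0.53 in B, 4.09 ± 0.60 in CD4 and 2.96 ± 0.53 in CD8 cells, whereas its myeloid level of 37.9 and 32.2 FPKM lay within the 32.4, 42.7 and 23.1 FPKM of LKS-SLAM cells. The members higher than in LKS-SLAM cells were Hist1h2be in myeloid cells, at 5.58 and 7.14 against 1.03, 1.47 and 2.39 FPKM (difference 1.51 ± 0.36, limma adjusted p = 0.000868), and Hist2h2be in CD4 cells (0.90 ± 0.32, adjusted p = 0.0254).

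Scale matters for these counts. Without further scaling the median over all genes tested was already below 0 against LKS-SLAM cells, by 0.61 in myeloid, 0.25 in B, 0.21 in CD4 and 0.21 in CD8 cells (log2), and the members' medians were -1.17, -1.60, -1.51 and -1.70. After quantile normalisation the members' medians were -0.47, -0.71, -0.84 and -1.01. Then 10 members were lower and 4 higher in myeloid, 20 and 2 in B, 20 and 1 in CD4 and 26 and 1 in CD8 cells. Of all 14083 genes tested, 4308 were lower and 4110 higher in myeloid cells and 3584 and 4552 in B cells. In CD4 cells 3365 were lower and 4101 higher, and in CD8 cells 3410 and 4194. The members' share called lower was thus not above that of all genes in myeloid cells. The share of higher calls over all genes moved from 26.2% to 48.8% in myeloid cells, 33.9% to 55.9% in B cells, 36.7% to 54.9% in CD4 cells and 33.8% to 55.2% in CD8 cells. Without CD4 control replicate 1 the CD4 count was 26 in place of 33. Leaving out myeloid control replicate 1 left 20 members lower or higher in myeloid cells in place of 31.

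B cells and myeloid cells were compared directly, without the LKS-SLAM libraries. Here 2 members were higher in B cells and 10 lower (53% of all genes called, 35.8% higher and 17.2% lower). Hist3h2ba was higher by 3.57 ± 0.48 (log2, SE, limma adjusted p = 2.09e-06) and Hist2h2be by 1.51 ± 0.32 (adjusted p = 0.000446). Hist1h2bc was lower by 3.16 ± 0.45, Hist1h1c by 2.77 ± 0.71, Hist1h2be by 2.50 ± 0.36 and Hist1h1e by 1.99 ± 0.38. Hist1h4i, at 7.84, 6.72 and 6.43 FPKM in B and 37.9 and 32.2 in myeloid cells, was lower as well (limma adjusted p = 0.00395). The members' median was -0.14 and that of all genes 0.25 (log2). Hist3h2a did not pass (0.20 ± 0.30, adjusted p = 0.633).

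**Figure D3:**
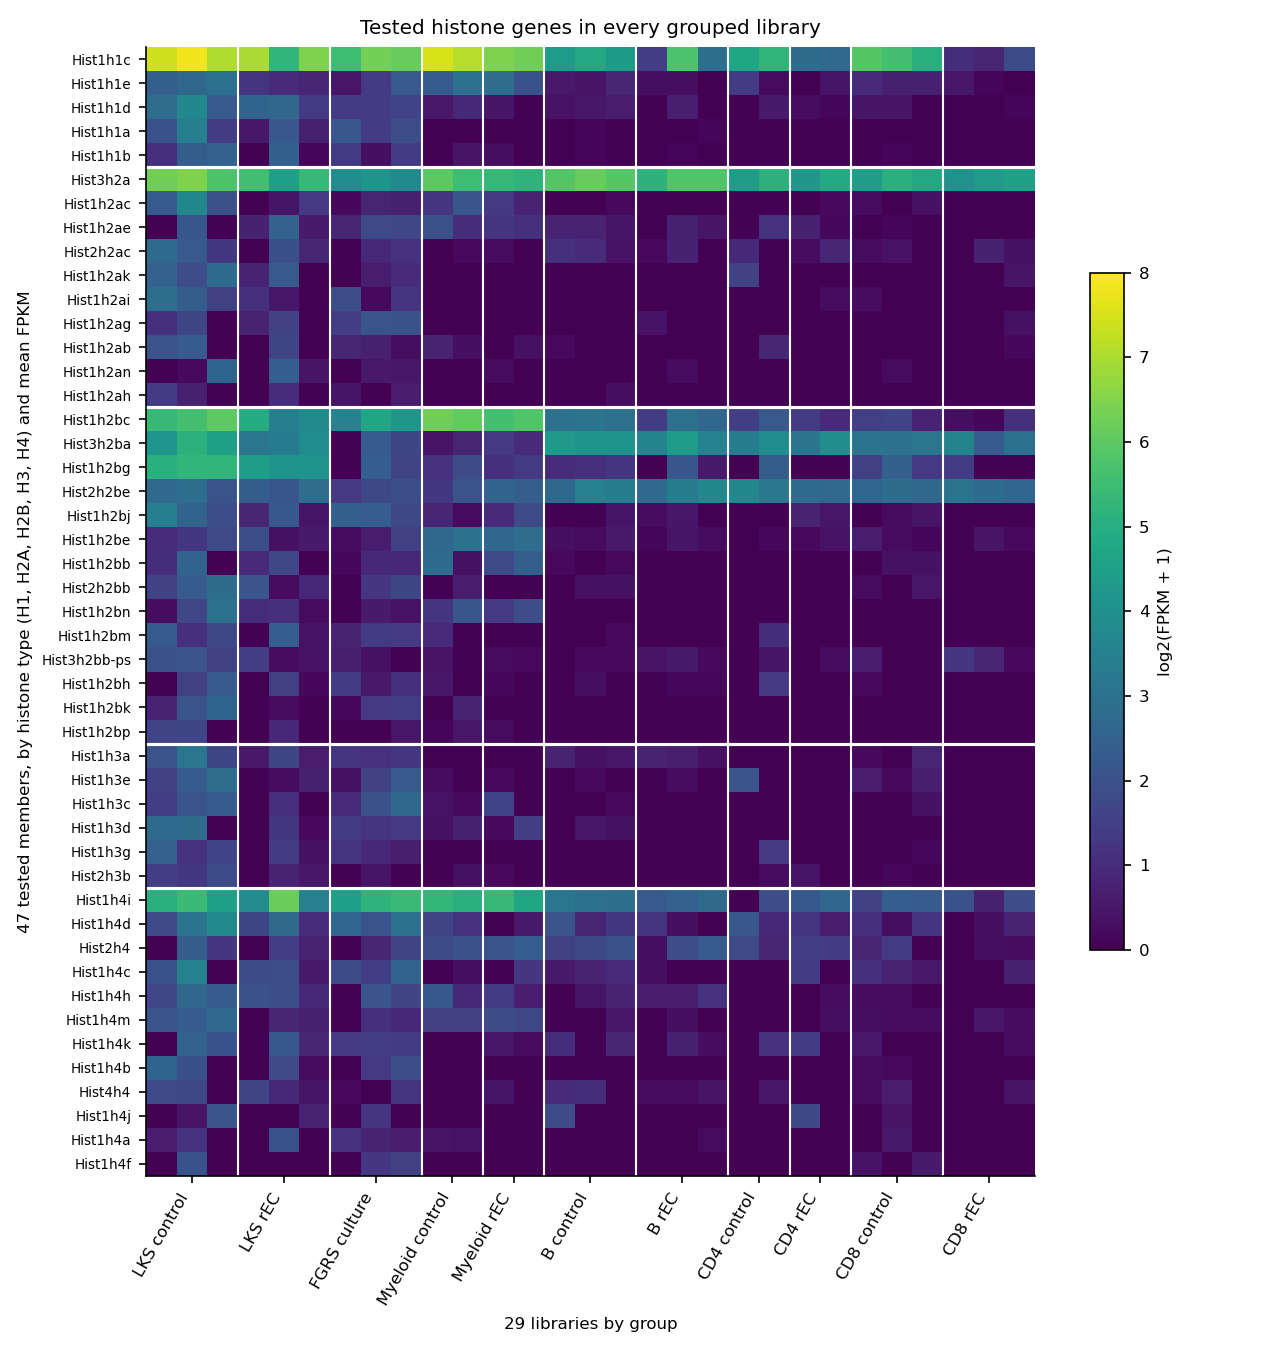
Level, as log2(FPKM + 1), of the 47 tested members (rows, by histone type and mean) in the 29 grouped libraries (columns, by group). Most rows are near 0 in the blood groups and above 0 in LKS-SLAM controls, while Hist1h1c, Hist3h2a, Hist3h2ba, Hist2h2be, Hist1h2bc and Hist1h4i stay visible in blood. Of all 68 members, 35 to 48 reach 1 FPKM in LKS-SLAM control, 10 to 34 in LKS-SLAM rEC and 19 to 33 in FGRS libraries. Some rows passed the filter only through LKS-SLAM libraries.

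Origin was compared within each cell type, rEC against control. In LKS-SLAM cells the histone sum was 279.6, 255 and 204 FPKM in rEC against 482, 658 and 448 in control libraries, so that the groups did not overlap. Of 47 members, 12 were lower and 0 higher, where 1.32% of all genes were called, 1.25% lower and 0.071% higher. The members' median difference was -0.96 and that of all genes tested -0.05 (log2). With the filter applied outside the LKS-SLAM groups, 8 of 39 members were lower, where 1.08% of all genes were called.

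**Figure D4:**
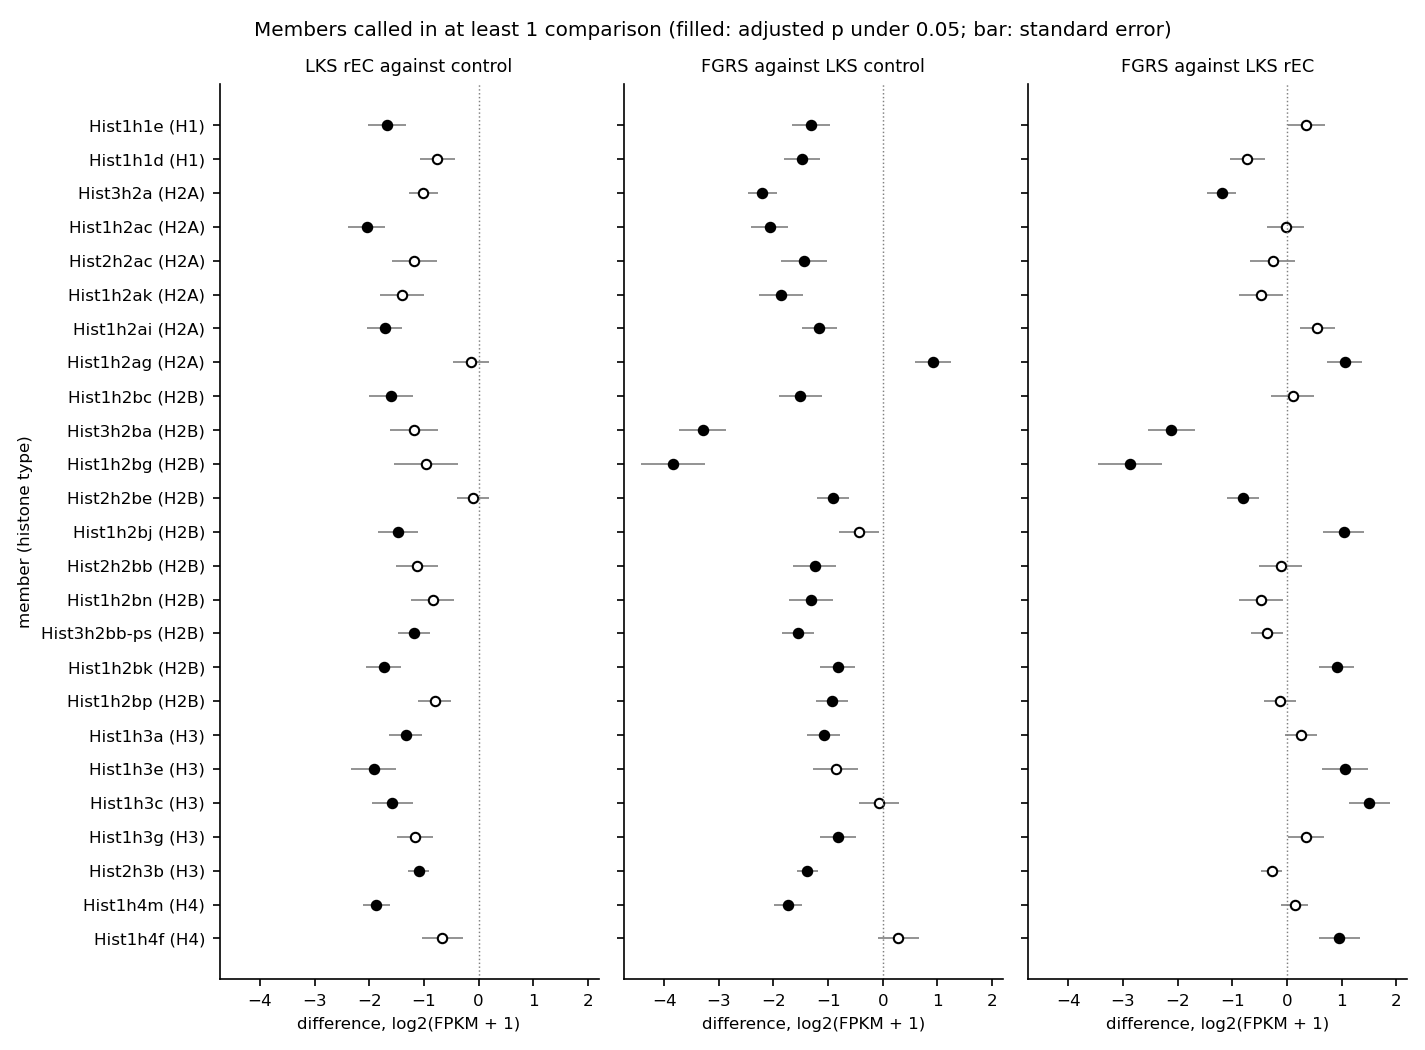
Difference ± SE on the log2(FPKM + 1) scale for the members called in at least 1 of 3 comparisons (filled points, limma adjusted p under 0.05; open points, not called). LKS-SLAM rEC cells lie below controls for every member shown, and the FGRS culture lies furthest below for Hist1h2bg and Hist3h2ba; the first 2 panels share the control libraries.

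By type, 1 of 5 tested H1 members, 2 of 10 H2A, 4 of 14 H2B, 4 of 6 H3 and 1 of 12 H4 members were lower in LKS-SLAM rEC cells, and with the filter applied outside the LKS-SLAM groups 1 of 5, 2 of 6, 1 of 12, 3 of 5 and 1 of 11. Hist1h2ac was 0, 0.381 and 1.49 FPKM in rEC against 3.80, 11.8 and 2.97 in control cells (difference -2.05 ± 0.34, limma adjusted p = 0.002). Hist1h1e was 1.31, 0.945 and 0.810 FPKM against 4.497, 5.33 and 6.55 (-1.67 ± 0.34, adjusted p = 0.0118). For Hist1h2bc the levels were 29.7, 9.72 and 13.2 FPKM against 40.2, 48.4 and 64.1 (-1.61 ± 0.40, adjusted p = 0.0469).

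None of these 3 members had a rEC library within the control range. Hist1h4m, an H4 gene with a short mRNA, was 0, 0.796 and 0.626 FPKM against 3.25, 4.08 and 5.65 (-1.87 ± 0.25, limma adjusted p = 0.000211). The others called were Hist1h2ai, Hist1h2bj, Hist1h2bk, Hist1h3a, Hist1h3c, Hist1h3e, Hist2h3b and Hist3h2bb-ps, with differences between -1.92 and -1.10. Hist2h3b and Hist3h2bb-ps had passed the filter only through the LKS-SLAM libraries and were not tested without them, and under that filter Hist1h2bc (adjusted p = 0.055) and Hist1h2bj (adjusted p = 0.0557) were no longer called by limma. Hist1h2bc and Hist1h2ac are a divergent H2A-H2B pair whose starts lie 251 bases apart on chromosome 13.

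Leading members that did not pass in LKS-SLAM cells were Hist1h1c (125, 37.7 and 86.5 FPKM in rEC, difference -1.21 ± 0.64, adjusted p = 0.601), Hist3h2a (46.5, 22.1 and 39.7 FPKM, -1.01 ± 0.26, adjusted p = 0.0581), Hist3h2ba (-1.18 ± 0.43, adjusted p = 0.276) and Hist1h2bg (21.6, 16.2 and 15.7 FPKM, -0.96 ± 0.59, adjusted p = 0.688). All rEC libraries of these 4 members lay below all 3 controls in FPKM. Hist1h4i overlapped, at 13.4, 72.6 and 10.1 FPKM, and its highest library was clone 47G1.

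The count in LKS-SLAM cells depended on the model. When only the 6 LKS-SLAM libraries were fitted 0 members passed, and 3 did with 0.1 in place of 1 added to the FPKM. After quantile normalisation 5 passed, where 114 of all 14083 genes were lower and 88 higher. That step moved the share of higher calls over all genes from 5.38% to 43.6%. The count was 7 without LKS-SLAM control replicate 2, 19 without rEC replicate 2 and 15 without control replicate 3. Hist1h2bc passed in 1 of the 6 fits that left out 1 library.

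Other measures were read beside this difference, and their part in it was not tested. The sums of the neutrophil markers, the T cell markers and the histone variants given below did not overlap between the groups. Those of the other gene lists did. T cell markers summed to 65.9 to 84.4 FPKM in control and 28.2 to 59.8 in rEC libraries, with 0 of 6 called. The 24 genes of the S phase and mitosis list summed to 1574, 1589 and 1012 FPKM in control and 703, 3352 and 406 in rEC libraries, with 0 of 24 called. In clone 47G1, where that sum was highest, the other 61 members summed to 84.3 FPKM, below the 108, 175 and 112 FPKM of the controls. Neutrophil markers (6 of 6 in the table) summed to 1138 to 1489 FPKM in control and 11.5 to 361 in rEC libraries, with 4 of 6 called lower in rEC and Camp listed at 0 in clone 47G1. Eosinophil markers (4 of 4) summed to 2335, 4298 and 33.3 FPKM in control and 3.07, 361 and 0.925 in rEC libraries, with 1 of 4 called lower in rEC, Epx and Prg3 listed at 0 in control replicate 3, and Epx, Prg3 and Ear1 in rEC replicate 1. Rn45s, the ribosomal RNA precursor, which has no tail, was 2080, 2193 and 9045 FPKM in control and 4679, 7059 and 460 in rEC libraries, so the groups overlapped.

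**Figure D5:**
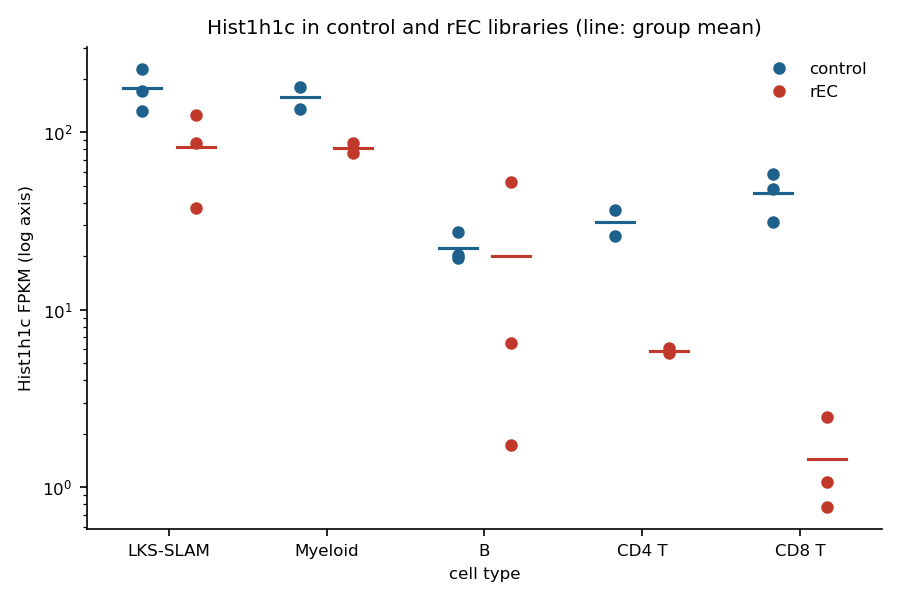
Hist1h1c FPKM (log axis) in control (blue) and rEC (red) libraries of 5 cell types, 1 point per library with group means as lines. The 3 CD8 rEC libraries lie between 0.772 and 2.48 FPKM, below the 31.1 to 58.5 FPKM of the CD8 controls.

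In blood, Hist1h1c was the 1 member called by origin. The histone sum was lower in rEC libraries without overlap in myeloid cells (255 and 233 against 398 and 322 FPKM), CD4 cells (54.7 and 66.5 against 83.6 and 115) and CD8 cells (42.8, 35.6 and 44.7 against 107, 112 and 84.2), and overlapped in B cells (63.4, 162 and 104 against 133, 148 and 131). The myeloid H2A sums (43.2 and 38.8 against 69.0 and 50.5 FPKM) and H2B sums (67.1 and 78.5 against 94.8 and 87.1) did not overlap, nor did the CD8 H4 sums (3.02, 1.56 and 4.94 against 6.63, 8.58 and 6.47). Also lower without overlap were H1 in myeloid, CD4 and CD8 cells, H3 in CD4 and CD8 cells, CD4 H2B, and B cell H2A and H4. The myeloid H3 sums (2.68 and 1.76 against 0.783 and 1.21) and CD4 H4 sums (12.2 and 7.88 against 5.83 and 6.07) were higher in rEC without overlap. The remaining type sums overlapped. Hist1h1c was 1.07, 0.772 and 2.48 FPKM in CD8 rEC cells against 58.5, 47.6 and 31.1 FPKM in CD8 controls, a difference of -4.28 ± 0.64 (log2, SE, limma adjusted p = 0.00128). Of 47 members 1 was thus called in CD8 cells, where 1.13% of all genes were called, 0.987% lower and 0.142% higher. The call held in all alternatives run, with adjusted p between 3.33e-07 and 0.0432.

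CD4 cells held 6.08 and 5.70 FPKM of Hist1h1c in rEC against 25.9 and 36.5 in control libraries, which do not overlap but did not pass (-2.21 ± 0.78, limma adjusted p = 1). B cells held 1.72, 52.5 and 6.47 against 20.3, 27.3 and 19.5 FPKM (-1.17 ± 0.64, adjusted p = 1); the high rEC library is clone 47G1 and the lowest is the one with T cell markers. Myeloid cells held 86.5 and 76.4 against 180.3 and 136 FPKM (-0.94 ± 0.78, adjusted p = 1). The rEC mean was thus lower in all 5 cell types.

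Summed markers of B cells, neutrophils and macrophages were lower in the CD8 rEC libraries too. Of these, 5 of 5, 0 of 6 and 2 of 6 were called lower, against 0.987% of all genes. Erythroid markers overlapped, at 20.2 to 34.8 FPKM in CD8 control and 17.5 to 100 in CD8 rEC libraries. Stem cell and endothelial sums overlapped as well. T cell markers were lower without overlap, at 1563 to 1716 FPKM in CD8 rEC against 1728 to 1857 in CD8 control libraries, with 0 of 6 called. So were the histone variants given below, at 927 to 955 against 1024 to 1152 FPKM, with 0 of 11 called. The histone mRNA processing list was higher without overlap, at 313 to 351 against 297 to 309 FPKM, with 0 of 12 called. Eosinophil markers summed to 0.219 to 0.248 FPKM in CD8 control and 0.253 to 1.75 in CD8 rEC libraries. B cell markers (5 of 5) summed to 197 to 469 FPKM in CD8 control and 6.74 to 61.8 in CD8 rEC libraries, with none listed at 0. Neutrophil markers (6 of 6) summed to 11.7 to 26.6 FPKM in CD8 control and 0.811 to 2.88 in CD8 rEC libraries, with 3 to 4 of the 6 listed at 0 in each rEC library, Retnlg in all 3. Macrophage markers (6 of 6) summed to 22.8 to 70.9 FPKM in CD8 control and 7.09 to 7.42 in rEC libraries. Rn45s was 1914, 1949 and 1943 FPKM in CD8 control and 5458, 136 and 173 in rEC libraries. The part of these measures in the Hist1h1c difference was not tested.

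No member passed in myeloid (1 of 47 at an unadjusted p under 0.05), B (0 of 47) or CD4 cells (2 of 47) by limma, where 0.227%, 0% and 0.0213% of all genes were called. In myeloid cells 0.0639% of all genes were higher and 0.163% lower, and in CD4 cells 0.0142% and 0.0071%. In myeloid cells the smallest p among members was that of Hist2h2be, at 4.82 and 4.31 FPKM in rEC against 1.47 and 3.19 in control (0.79 ± 0.36, adjusted p = 1). Averaged over the 5 cell types, a contrast added after seeing the data, Hist1h1c was lower in rEC by 1.96 ± 0.31 (log2, SE, limma adjusted p = 0.00273, 13 against 13 libraries) and Hist1h2bc by 0.84 ± 0.20 (adjusted p = 0.0402), which made 2 of 47 members where 0.895% of all genes were called, 0.483% lower and 0.412% higher. Hist1h1c passed in all 26 fits that left out 1 library, and Hist1h2bc in 10 of them. The count of 2 became 6 without LKS-SLAM rEC replicate 2, 4 without rEC replicate 1 or control replicate 3 of LKS-SLAM, and 1 in 13 of the 26 fits.

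A test of whether the origin difference varied between cell types called 1 member of 47, where 0.277% of all genes were called. This was Hist1h4m (limma F test, adjusted p = 0.0197), with -1.87 ± 0.25 in LKS-SLAM cells and between -0.07 and 0.18 in the 4 blood populations. Its control level was 0, 0 and 0.411 FPKM in B, 0 and 0 in CD4 and 0.239, 0.199 and 0.194 in CD8 cells, which left little room for a lower value, and 1.98 and 2.02 FPKM in myeloid cells. For Hist1h1c the same test gave an adjusted p of 0.483, so its larger difference in CD8 cells is not shown to exceed those elsewhere. Leaving out LKS-SLAM control replicate 2 left 0 members in this test, leaving out LKS-SLAM rEC replicate 2 gave 6 and leaving out LKS-SLAM control replicate 3 gave 5. It called 2 without LKS-SLAM control replicate 1, B cell rEC replicate 1 or B cell rEC replicate 2.

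The FGRS culture was compared with LKS-SLAM cells next. Its histone sum was 130.1, 223 and 223 FPKM, below all LKS-SLAM controls, as were the sums of every type except H4. The H1 sum was 51.5, 85.3 and 79.5 FPKM against 186, 259 and 149 in controls, and the H3 sum 5.43, 9.78 and 15.2 against 22.2, 28.3 and 17.5. The H2A sum was 20.7, 25.9 and 24.5 FPKM against 103, 124 and 71.0 in controls, and the H2B sum 20.1, 48.7 and 37.7 against 119.8, 158 and 157. The H4 sum overlapped, at 32.3, 53.1 and 65.9 against 51.2, 88.5 and 53.2 FPKM.

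Against LKS-SLAM controls 20 members were lower and 1 higher, where 48.8% of all genes were called, 31.7% lower and 17.1% higher, so the share of members called, 44.7%, was no higher than the background. The members' median was -0.83 and that of all genes -0.19 (log2). By type 2 of 5 H1, 5 of 10 H2A, 9 of 14 H2B, 3 of 6 H3 and 1 of 12 H4 members were lower. Hist1h2bg was 0, 4.26 and 2.14 FPKM in the culture against 32.7, 37.2 and 36.4 in controls (-3.84 ± 0.59, limma adjusted p = 2.59e-05). Hist3h2ba was 0, 4.01 and 2.15 FPKM against 17.2, 34.1 and 22.4 (-3.30 ± 0.43, adjusted p = 4.47e-06), and Hist3h2a was 13.9, 16.8 and 13.1 against 75.4, 86.0 and 53.8 FPKM (-2.20 ± 0.26, adjusted p = 1.65e-06).

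These 3 members had no culture library within the control range. Hist1h2ac (-2.07 ± 0.34), Hist1h2bc (-1.51 ± 0.40), Hist1h1d (-1.48 ± 0.32), Hist1h1e (-1.32 ± 0.34) and Hist2h2be (-0.91 ± 0.29) were lower as well, the last one not after quantile normalisation (-0.26, adjusted p = 0.499). Hist1h1c was 44.5, 80.1 and 69.3 FPKM, below all controls, without passing (-1.44 ± 0.64, adjusted p = 0.066). Hist1h4i was 21.7, 36.2 and 41.0 FPKM and overlapped the controls at 32.4, 42.7 and 23.1 FPKM (0.00 ± 0.53). The member that was higher was Hist1h2ag, an H2A gene that shares 78.9% of its windows with other genes, at 1.72, 3.17 and 2.98 against 1.13, 2.19 and 0 FPKM (0.91 ± 0.33, adjusted p = 0.0253).

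After quantile normalisation 10 members were lower and 1 higher in this comparison. Of all 14083 genes tested, 2864 were lower and 2944 higher, so the share of members lower was near that of all genes. The median of all genes moved from -0.19 to 0.03 while the share of higher calls over all genes moved from 35.1% to 50.7%. With the filter applied outside the FGRS and LKS-SLAM control groups 14 of 31 members were lower and 0 higher, where 47.9% of all genes were called, and Hist1h2ag was not tested. By type these were 2 of 3 H1, 4 of 5 H2A, 6 of 11 H2B, 1 of 3 H3 and 1 of 9 H4 members.

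Against LKS-SLAM rEC cells, which do not share libraries with the controls, 4 members were lower and 6 higher in the culture, where 45% of all genes were called, 27.8% lower and 17.2% higher; the members' median was 0.14 and that of all genes -0.14 (log2). The 4 lower members were again Hist1h2bg (21.6, 16.2 and 15.7 FPKM in rEC, difference -2.87 ± 0.59), Hist3h2ba (7.84, 8.76 and 13.9 FPKM, -2.12 ± 0.43), Hist3h2a (-1.19 ± 0.26) and Hist2h2be (-0.80 ± 0.29), with limma adjusted p of 0.00051, 0.000498, 0.00106 and 0.0288. Both FGRS comparisons use the same 3 culture libraries. The 6 higher members were low: Hist1h3c (1.51 ± 0.37), Hist1h3e (1.06 ± 0.42), Hist1h2ag (1.05 ± 0.33), Hist1h2bj (1.03 ± 0.37), Hist1h4f (0.95 ± 0.38) and Hist1h2bk (0.91 ± 0.32), with culture means between 1.13 and 3.73 FPKM and overlapping groups. With the filter applied outside both groups 5 were higher and 4 lower of 43 tested, where 44.5% of all genes were called, and Hist1h4f was not tested. The count was 16 without LKS-SLAM rEC replicate 2, 6 without rEC replicate 3, 5 without FGRS replicate 2 and 0 when only the 6 libraries compared were fitted.

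The pattern of the culture can be set beside that of myeloid controls. Hist1h2bg was 1.19 and 2.65 FPKM and Hist3h2ba 0.343 and 0.786 FPKM in myeloid controls, close to the culture, whereas Hist3h2a was 62.6 and 44.9 FPKM there and at most 16.8 FPKM in the culture. Macrophage markers summed to 235 to 1340 FPKM and neutrophil markers to 107 to 3484 FPKM in the culture, with none of the 12 listed at 0, and stem cell markers summed to 31.2 to 55.6 FPKM against 400.5 to 463 in LKS-SLAM controls; their part was not tested. The untailed RNA Rpph1, part of RNase P, was 63.2, 96.1 and 206 FPKM in the culture against 14.0, 8.14 and 49.0 in controls (2.52 ± 0.98, adjusted p = 0.0373), while Rn45s was 618.3, 1456 and 1522 against 2080, 2193 and 9045 FPKM.

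Genes that act with these histones were read for comparison. The S phase and mitosis list had 4 of 24 genes higher in the culture than in LKS-SLAM controls, near the 17.1% of all genes called higher. Against LKS-SLAM rEC cells 17 of 24 were higher, where 17.2% of all genes were. In both comparisons 0 were lower. In blood controls 24 of 24 were lower than in LKS-SLAM cells in myeloid, and 22 of 24 in each of B, CD4 and CD8 cells. The share of all genes called lower was 49.1% in myeloid, 36.7% in B, 32% in CD4 and 33.2% in CD8 cells. The list summed to 2210 to 2638 FPKM in the culture against 1012 to 1589 in LKS-SLAM controls, while the histone sum of the culture was the lower one.

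Of 14 genes listed for histone mRNA processing 12 were tested, and limma called 0 in each of the 5 origin comparisons, where 0% to 1.32% of all genes were called. In the culture it called 1 against LKS-SLAM controls (48.8% of all genes called) and 2 against LKS-SLAM rEC cells (45%). Slbp, which binds the stem-loop, was 82.8, 81.6 and 73.4 FPKM in the culture against 58.5, 63.3 and 52.6 in LKS-SLAM controls without passing, and was higher than in LKS-SLAM rEC cells (29.5, 106 and 22.02 FPKM; 0.92 ± 0.31, limma adjusted p = 0.0208). Ncbp1, a cap-binding subunit, was higher in the culture than in controls (0.998 ± 0.26, adjusted p = 0.00321). In myeloid controls 8 of 12 were lower than in LKS-SLAM cells, among them Npat, a coactivator of histone gene transcription (-1.37 ± 0.22), and 1 was higher, Lsm10 of the U7 particle that cuts histone pre-mRNA (1.66 ± 0.20). There 49.1% of all genes were lower and 17.4% higher.

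Most histone variants are encoded outside the clusters, and many are made throughout the cell cycle. In LKS-SLAM cells limma called 0 of 11 by origin, where 1.32% of all genes were called. The median of the 11 was -0.31 (log2), with sums of 2609, 2813 and 2367 FPKM in rEC against 3351, 3595 and 2842 in control libraries. In the culture 4 of 11 were higher and 4 lower than in LKS-SLAM controls, where 17.1% of all genes were higher and 31.7% lower. Among them were the linker variant H1fx, at 4.75, 2.99 and 3.53 against 77.2, 65.1 and 59.2 FPKM (-3.85 ± 0.40), and the H2A variants H2afz (1.195 ± 0.40) and H2afx (0.97 ± 0.37), which were higher. Of the 16 histone chaperones 3 were higher and 3 lower in the culture than in LKS-SLAM controls, against the same 17.1% and 31.7% of all genes. Nasp, an H3-H4 carrier, was higher (1.48 ± 0.53) and Chaf1b, of the assembly factor that works at replication forks, was lower (-0.64 ± 0.20). In blood, 8 or 9 of the 11 variants were lower than in LKS-SLAM cells in each population. Of all genes 49.1% were lower in myeloid, 36.7% in B, 32% in CD4 and 33.2% in CD8 cells.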

How the data were processed

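The authors deposited 1 FPKM value for each of 23060 genes in 30 libraries. Per the labels, RNA of sorted cells was poly-A selected, prepared without strand (TruSeq v2) and read as 51 bp pairs; per the submitters' processing notes the tools were Cufflinks 2.2.1, TopHat2 2.1.0, Trimmomatic 0.36, FastQC 0.11.5 and bcl2fastq 2.17, with mm10 as the build. The annotation, the handling of reads with several matches and any scaling between libraries are not given in the sources used here. FPKM carry no counts, so no interval or detection limit is given, and low values are the least precise. Groups came from titles: 29 libraries in 11 groups, 1 library without a group.

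limma 3.58.1 (R 4.3.3) with an intensity trend was fitted to log2(FPKM + 1), 1 mean per group, 18 residual degrees of freedom, all tests two-sided except the F tests. The pseudocount of 1 understates changes of low genes. A call is an adjusted p under 0.05 over all 14083 genes tested in that comparison. Differences are log2 with SE. On simulated data the model recovered 74% of changes of 1 and 97% of changes of 2 (log2) in the CD8 comparison. Recovery was 84% and 99% in FGRS against LKS-SLAM control and 65% and 97% in myeloid against LKS-SLAM control. It was not tested for the members alone or for genes of low level. The median of the 68 member means was 0.509 FPKM, so these rates should not be read as the recovery for low members.

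Stem-loops, poly-A signals and shared windows came from GENCODE (all 68 symbols matched) and promoters from RefSeq, with Python 3.11.15, numpy 2.4.6, pandas 2.3.3 and matplotlib 3.10.9. Members, gene lists and tests were chosen with earlier results of these data known. Named members are the 12 highest by mean, the highest of each type and, per comparison, up to 10 called members whose groups do not overlap and whose higher group averages 5 FPKM or more, or else the smallest p. Hist1h4m, Hist1h2ag, the members lower in LKS-SLAM rEC cells and those higher in the culture were named after their values were seen, as were the untailed RNAs Rn45s, Rmrp and Rpph1. Alternatives were another pseudocount, filters, quantile normalisation, a replicate block, array weights, fits on the compared groups alone and leaving out libraries. The filter on libraries outside the groups compared and the mean of the 5 origin differences were added after seeing the data.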

Additional observations from a re-analysis of the deposited data

Results flagged for a closer look

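The origin difference of Hist1h4m varied between cell types (limma F test, adjusted p = 0.0197): it was -1.87 on the log2 scale in LKS-SLAM cells and between -0.07 and 0.18 in the 4 blood populations. Its level in B, CD4 and CD8 controls was at most 0.411 FPKM, which left little room for a lower value there. Hist1h4m shares 89.8% of its 51-base windows with other genes. The library without a group, titled as B220+ cells of clone 47G1 and annotated as wild type, held 1.13 FPKM of Hist1h2ae, above the 0.743, 0.697 and 0.3595 FPKM of the 3 B cell controls; it was the 1 of 8 members at 1 FPKM or more in that library that lay above all 3 controls. No group held 4 or more libraries, so no single library was tested against its own group.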

How the results depend on the processing

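Counts of members called are given in the order LKS-SLAM rEC against control, FGRS against LKS-SLAM control, FGRS against LKS-SLAM rEC, the origin mean and the origin F test, which gave 12, 21, 10, 2 and 1. Adding 0.1 in place of 1 gave 3 for LKS-SLAM rEC, 1 for the origin mean and 0 for the origin F test. A filter of 5 FPKM left 12 members to test, and gave 1, 7, 4 and, for the F test, 0; against LKS-SLAM cells it gave 7 in myeloid, 9 in B, 10 in CD4 and 11 in CD8 cells, 7 for B against myeloid cells and 12 for the control F test. Without a filter the origin mean gave 1. Quantile normalisation gave 5 for LKS-SLAM rEC, 11 for FGRS against control, 14 in myeloid and 21 in CD4 cells, 1 for the origin mean and 0 for the origin F test, and Hist2h2be in myeloid against LKS-SLAM cells turned from -0.88 to 0.29 (adjusted p = 0.454). Array weights, whose iteration did not converge, gave 38 for LKS-SLAM rEC, 3 for CD8 rEC, 40 for FGRS against rEC, 25 for the origin mean and 29 for the origin F test. Without LKS-SLAM rEC replicate 2 and B cell rEC replicate 1 the counts were 22 for LKS-SLAM rEC, 16 for FGRS against rEC, 7 for the origin mean and 7 for the origin F test. Fits on the compared groups alone gave 0 for LKS-SLAM rEC, 0 for FGRS against rEC, 18 in myeloid and 21 in CD4 cells. The share of all genes called is not given here for these settings or for the fits below that leave out 1 library. The counts can therefore not be read as results about the members alone. The cause of these changes was not tested.

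Leaving out 1 library at a time gave 7 to 19 for LKS-SLAM rEC, 5 to 16 for FGRS against rEC, 20 to 30 in myeloid cells, 1 to 6 for the origin mean and 0 to 6 for the origin F test; the highest origin mean and F test counts were those without LKS-SLAM rEC replicate 2. Replicate numbers did not pair the libraries, as deviations of same-numbered libraries correlated between -0.0889 and 0.0754; with a replicate block the origin mean gave 1, LKS-SLAM rEC 11 and FGRS against control 20. For the 67 named results, 916 of 1006 values under alternatives kept direction and side of the threshold, 89 lost the call and 1 reversed. FPKM give no depth, so no detection limit is given for members listed at 0.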

Other observations

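The library without a group held 6.83 FPKM of Hist1h1c, below the 19.5 to 27.3 FPKM of the B cell controls and near the 6.47 FPKM of B cell rEC replicate 3. Of its 8 members at 1 FPKM or more, 6 lay below all 3 B cell controls, among them Hist3h2a at 45.3, Hist3h2ba at 12.8 and Hist1h2bc at 5.01 FPKM. Rmrp, an RNA without a tail, was 12.02, 15.04 and 70.7 FPKM in LKS-SLAM control and 5.77, 4.57 and 0.520 FPKM in LKS-SLAM rEC libraries, and Rpph1 was 14.0, 8.14 and 49.0 against 0.350, 15.2 and 2.01 FPKM; neither passed by limma (adjusted p = 0.455 and 0.445).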
